A study of Mus musculus with 18 samples.

Results

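The Hedgehog pathway is described here through 7 genes: the ligand gene Shh, the receptor genes Ptch1 and Smo, the inhibitor gene Sufu, and the transcription factor genes Gli1, Gli2 and Gli3. They were taken by symbol from a table of coding-sequence read counts with 20655 rows, and all 7 were found. All 7 also passed the filter on low counts, in RNA and in ribosome footprints, so that none was left out of a test.

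Per the labels, basal cells of mouse epidermis were studied at E18.5 (embryonic day), after an shRNA had been brought into the epidermis by injection in utero at E9.5. Ribosome footprints, which are the mRNA stretches that ribosomes shield from nuclease, and RNA were each sequenced in 9 libraries, 3 for each of 3 conditions. Embryos of the HrasG12V shEif2b5 condition were of strain FR-HrasG12V, with an oncogenic Hras allele, and received an shRNA against Eif2b5, which encodes the catalytic subunit of the initiation factor eIF2B. Embryos of HrasG12V shScram were of the same strain and received a scrambled shRNA. Embryos of WT shScram received the scrambled shRNA and, per the labels, were of a strain with a tdTomato/EGFP reporter at Gt(ROSA)26Sor, so strain and Hras genotype cannot be told apart. There was no WT shEif2b5 condition. WT shScram footprint library 1 is labelled Rosa26 for its genotype, unlike the other WT libraries, and was kept in that condition by its title. All epidermis was handled in cycloheximide, which stalls ribosomes on mRNA, and was separated from dermis with dispase. Whether the 3 libraries of a condition came from separate embryos is not stated in the labels; p-values then reflect the spread among libraries alone, which may be technical.

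Hedgehog ligands are secreted, lipid-bound proteins that bind Patched1, the product of Ptch1. Without ligand, Patched1 holds Smoothened, the product of Smo, inactive, and Sufu keeps the Gli proteins in check; with ligand, Smoothened becomes active in the primary cilium and the Gli proteins turn on target genes, among them Ptch1 and Gli1 themselves. In embryonic skin Shh is made by epithelial cells of the hair placode and follicle, and it acts on neighbouring epithelium and on the dermal condensate beneath it.

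Sequences are printed for the members whose RNA passed a test between conditions and whose promoter is in the RefSeq table (build GRCm38.p6), which holds Gli2, Gli3, Ptch1, Smo and Sufu, and not Shh and Gli1. Each window runs 5′ to 3′ on the gene's strand, from 250 bases before to 50 after the start site, and capitals mark a GC box. Ptch1 is on the minus strand, with a RefSeq start that lies inside the GENCODE gene, and Smo is on the plus strand.
Ptch1 promoter, chr13:63565686-63565985: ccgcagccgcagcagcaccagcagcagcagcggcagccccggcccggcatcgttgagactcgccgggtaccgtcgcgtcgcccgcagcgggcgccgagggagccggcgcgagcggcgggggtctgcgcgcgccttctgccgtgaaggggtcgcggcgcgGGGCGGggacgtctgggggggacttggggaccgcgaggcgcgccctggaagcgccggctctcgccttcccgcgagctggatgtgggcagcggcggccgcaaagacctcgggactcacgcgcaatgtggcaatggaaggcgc
Smo promoter, chr6:29735247-29735546: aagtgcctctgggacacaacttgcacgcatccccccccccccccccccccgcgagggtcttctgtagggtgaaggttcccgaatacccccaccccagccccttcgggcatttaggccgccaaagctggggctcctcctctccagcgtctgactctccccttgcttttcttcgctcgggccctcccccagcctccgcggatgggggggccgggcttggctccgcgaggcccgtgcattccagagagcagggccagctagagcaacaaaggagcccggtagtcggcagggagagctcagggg
The GC box GGGCGG was searched on both strands; Ptch1 has 1, which begins 91 bases before the start site, and Smo has none. Gli2 has 1 and Gli3 has 2 in the same orientation, Sufu has 1 on the opposite strand, and 35.7% of all 32851 promoter windows hold at least 1. The Gli consensus GACCACCCA (in 0.253% of windows) and its shorter core CCACCCA (in 9.3%, with which every consensus match overlaps) were also searched on both strands. Neither letter string is in any of the 5 windows, which says nothing of Gli binding elsewhere.

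The bases around the start codon are printed for the same 5 members, since ribosome footprints were measured beside RNA. Each runs from 6 bases before to 18 after the start codon, which is in capitals (GENCODE vM21 transcripts, mm10).
Ptch1: ggcaacATGgcctcggctggtaacgcc
Smo: ttggccATGgccgctggccgccccgtg
Sufu: gccccaATGgcggagctgcggcctagc
Gli2: tctgagATGgagacttctgccccagcc
Gli3: gacattATGgaggcccaggcccacagc
The base right after the start codon is G in all 5. The base 3 before it is a purine in Ptch1, Smo, Gli2 and Gli3 and a pyrimidine in Sufu, and these values are set beside the footprint to RNA ratios further on as a description. Across all 7 members the annotated 5′ UTR holds 3 upstream ATGs in Shh, 2 in Ptch1, 2 in Smo, none in Sufu, 1 in Gli1, 4 in Gli2 and 2 in Gli3; 49.1% of tested genes have none and 11.5% have 4 or more.

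On mm10, Shh lies on chromosome 5 from 28456815 to 28467256 (minus strand), Ptch1 on chromosome 13 from 63508328 to 63573598 (minus), Smo on chromosome 6 from 29735503 to 29761365 (plus) and Sufu on chromosome 19 from 46396896 to 46488804 (plus). Gli1 is on chromosome 10 from 127329882 to 127341974 (minus), Gli2 on chromosome 1 from 118834132 to 119053619 (minus) and Gli3 on chromosome 13 from 15463235 to 15730026 (plus). The counts cover the coding exons of each gene. Shh has a GC-rich coding sequence of near-median length, 1311 bases with 63.8% GC, against a median of 1425 bases and 53% over tested genes. The coding sequences of the other members run from 1452 bases in Sufu to 4749 in Gli3, with GC contents between 54% in Gli3 and 60.2% in Smo.

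Libraries held 1771365 to 5505386 counts in RNA and 3319175 to 4933298 in footprints, and each member had at least 43 counts in every RNA library and 65 in every footprint library. In RNA, HrasG12V shScram libraries 1 and 3 stood apart on the first principal component, at 40.8 and 40.3 against −26.8 to 1.3 for the other 7 libraries (37.9% of the variance), so RNA results are given with and without them. The shRNA target Eif2b5 had 134, 128 and 143 CPM (counts scaled to a common library total with TMM factors) of RNA in HrasG12V shEif2b5, against 127, 388 and 145 CPM in HrasG12V shScram, and its difference passed no test in RNA (log2 −0.68, 95% interval −1.52 to 0.17, adjusted p 0.257) or footprints (−0.16, −0.41 to 0.08, adjusted p 0.994; edgeR's quasi-likelihood test). Basal keratinocyte markers were present in full (7 of 7, with summed RNA of 13300 to 15500 CPM in HrasG12V shEif2b5, 8570 to 11900 in HrasG12V shScram and 12700 to 17100 in WT shScram). Spinous and granular keratinocyte markers summed to more RNA than basal markers in every condition, mostly through Krt1 and Krt10. The spinous and granular sums were 48800 to 60800, 34300 to 63900 and 65700 to 102000 CPM in the same order. The levels of the members can therefore not be assigned to basal cells alone. Markers of other skin cells were present too, and those of melanocytes, Merkel cells and dermal cells are given beside the results. Immune markers (5 of 6, Cd207 at 0) summed to 8.87 to 22.1 CPM, endothelial markers (4 of 4) to 0.362 to 12.1 CPM and muscle markers (5 of 5) to 1.06 to 15.8 CPM over the 9 RNA libraries.

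Per kilobase of coding sequence, Ptch1 was the most abundant member RNA in WT shScram, with 212 ± 16.8 CPM per kb (SD, n = 3). Smo had 149 ± 14.6, Shh 126 ± 2.58, Gli1 58.8 ± 3.92, Gli2 34.9 ± 0.265, Sufu 17.5 ± 2.32 and Gli3 8.42 ± 0.362 CPM per kb, and no 2 neighbours in that order overlapped. The order was the same in HrasG12V shScram, where Shh (61.7 ± 17) and Gli1 (41.1 ± 11.1 CPM per kb) overlapped. In HrasG12V shEif2b5, Smo (164 ± 21), Ptch1 (162 ± 22.3) and Shh (123 ± 33.9 CPM per kb) were not separated beyond their spread.

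Footprints ranked the members differently. Shh led in all 3 conditions, with 55.7 ± 9.02 CPM per kb in HrasG12V shEif2b5, 48.5 ± 5.01 in HrasG12V shScram and 71.9 ± 8.71 in WT shScram (SD, n = 3 each). Ptch1 came next (37 ± 6.22, 32.8 ± 2.01 and 47.6 ± 4.64 CPM per kb in the same order of conditions) and then Sufu (28.6 ± 1.27, 29.1 ± 4 and 25.7 ± 1.83), whose libraries overlapped those of Ptch1 in HrasG12V shScram. Smo, second in RNA of WT shScram, had footprint levels of 12.5 ± 0.277, 12.5 ± 1.21 and 11.9 ± 1.94 CPM per kb and overlapped Gli2 in the HrasG12V conditions and Gli1 in WT shScram. Gli3 was lowest throughout, at 4.74 ± 0.848, 4.02 ± 0.26 and 4.77 ± 0.542 CPM per kb.

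The first comparison asked how the pathway differed in epidermis with oncogenic Hras. Shh and Ptch1 fell in HrasG12V shScram against WT shScram, in RNA and in footprints. Shh RNA was 2.07-fold lower and Ptch1 RNA 1.47-fold lower. Gli1, the other gene known as a direct readout of the pathway, was lower in every HrasG12V shScram library than in every WT shScram library without passing the test, and Smo, Sufu, Gli2 and Gli3 did not pass it either.

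The ligand gene Shh had 69.1, 107 and 67.1 CPM of RNA in HrasG12V shScram, against 161, 166 and 167 CPM in WT shScram. Libraries 1 and 3 of HrasG12V shScram were the low ones and library 2 lay between them and WT shScram, whose 3 libraries were close to each other; the groups did not overlap. The log2 fold change was −1.05 (SE 0.20, adjusted p 0.00734 by edgeR's quasi-likelihood test with Benjamini-Hochberg adjustment over 11096 genes, as for every RNA p below). Shh footprints were at 70.5, 57.4 and 63 CPM in HrasG12V shScram, against 81.7, 104 and 96.9 CPM in WT shScram, again without overlap. The footprint difference was −0.57 on the log2 scale (SE 0.14, adjusted p 0.0469, over 11448 genes). In these bulk libraries, fewer cells that make a transcript and less of it per cell cannot be told apart.

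Ptch1, which encodes the receptor that binds the ligand, had 553, 637 and 674 CPM of RNA in HrasG12V shScram, against 921, 834 and 978 CPM in WT shScram. All 3 HrasG12V shScram libraries were below the lowest WT shScram library, with libraries 1 and 3 of HrasG12V shScram at either end of their group, unlike Shh. The RNA difference was −0.55 (SE 0.15, adjusted p 0.0371). Its footprints were at 144, 131 and 148 CPM in HrasG12V shScram, against 202, 186 and 226 CPM in WT shScram, with no overlap and a log2 difference of −0.54 (SE 0.13, adjusted p 0.04).

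Smo, the transducer that Patched1 restrains, had RNA levels of 230, 270 and 295 CPM in HrasG12V shScram, against 380, 315 and 370 CPM in WT shScram. The RNA groups did not overlap, but the log2 difference of −0.42 (SE 0.15) did not pass (adjusted p 0.0923). Smo footprints were at 28.1, 27.9 and 32.9 CPM in HrasG12V shScram, against 32.3, 23.4 and 29.5 CPM in WT shScram, where the groups overlapped (log2 0.07, SE 0.16, adjusted p 0.911). Sufu, which binds and restrains the Gli proteins, stood at 28.3, 23.9 and 27.8 CPM of RNA in HrasG12V shScram, against 28.3, 26 and 21.7 CPM in WT shScram. The Sufu groups overlapped, and neither its RNA difference of 0.10 (95% interval −0.28 to 0.49) nor its footprint difference of 0.17 (−0.13 to 0.48) passed.

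Gli1, the transcription factor whose own gene is a Hedgehog target, had 115, 180 and 116 CPM of RNA in HrasG12V shScram, against 183, 209 and 195 CPM in WT shScram. As with Shh, HrasG12V shScram libraries 1 and 3 were the low ones, while library 2 lay just under the lowest WT shScram library. The RNA difference was −0.53 (SE 0.17, adjusted p 0.0586; 0.0457 by DESeq2's Wald test). Gli1 footprints were at 32.1, 28.1 and 30 CPM in HrasG12V shScram, against 42.1, 40.8 and 40.1 CPM in WT shScram, with no overlap and no library of HrasG12V shScram apart from its group, and the difference was −0.44 (SE 0.14, adjusted p 0.15).

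Gli2, the main activator among the Gli factors, had 128, 132 and 140 CPM of RNA in HrasG12V shScram, against 162, 162 and 160 CPM in WT shScram. The groups did not overlap, at a log2 difference of −0.27 (SE 0.13, adjusted p 0.194), and overlapped in footprints (−0.16, SE 0.14, adjusted p 0.673). Gli3, which acts mostly as a repressor, was the 1 member with RNA higher in every HrasG12V shScram library, at 54, 45.5 and 56.3 CPM against 40.5, 38.1 and 41.4 CPM in WT shScram. Neither its RNA difference of 0.39 (SE 0.15, adjusted p 0.127) nor its footprint difference of −0.24 (SE 0.18, adjusted p 0.605) passed.

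In RNA, 2 of 7 members were called, both lower (adjusted p under 0.05; 7.7% of all tested genes were called), and the groups did not overlap for 6 of 7 (26.1% of all tested genes). The median log2 difference of the members was −0.42, against 0.01 over all tested genes. In footprints, 2 of 7 were called, both lower (1.7% of tested genes were called), and 4 of 7 did not overlap (20.3% of tested genes), with a median of −0.24 against −0.01. The plot of RNA levels by library and the plot of footprint levels by library show these values.

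**Figure D1:**
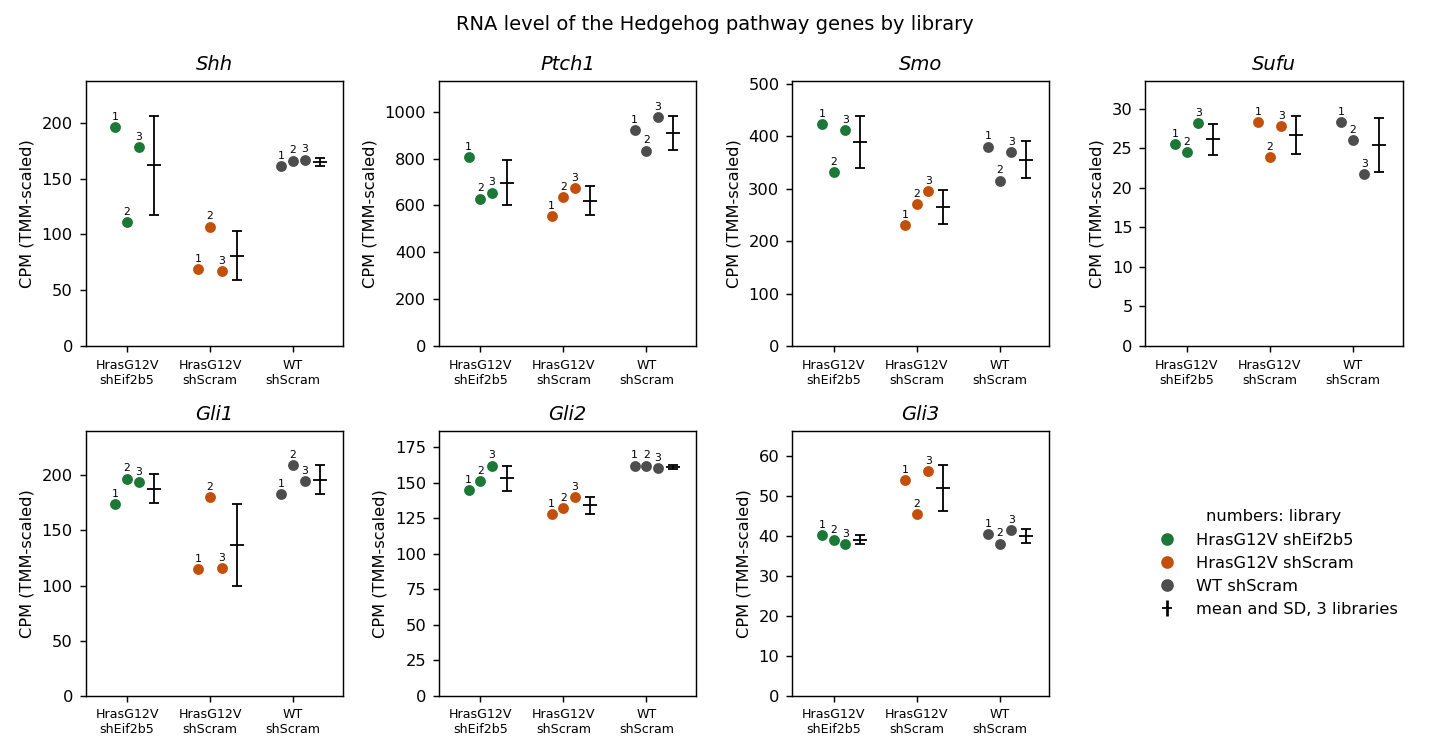
RNA level (y axes, TMM-scaled CPM from 0) of the 7 genes in the 3 libraries of HrasG12V shEif2b5, HrasG12V shScram and WT shScram; points are libraries with their number, and the black mark is the mean with its SD. Shh in HrasG12V shScram lies between 67.1 and 107 CPM, below WT shScram (161 to 167 CPM), and Gli3 is the member with higher RNA there.

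**Figure D2:**
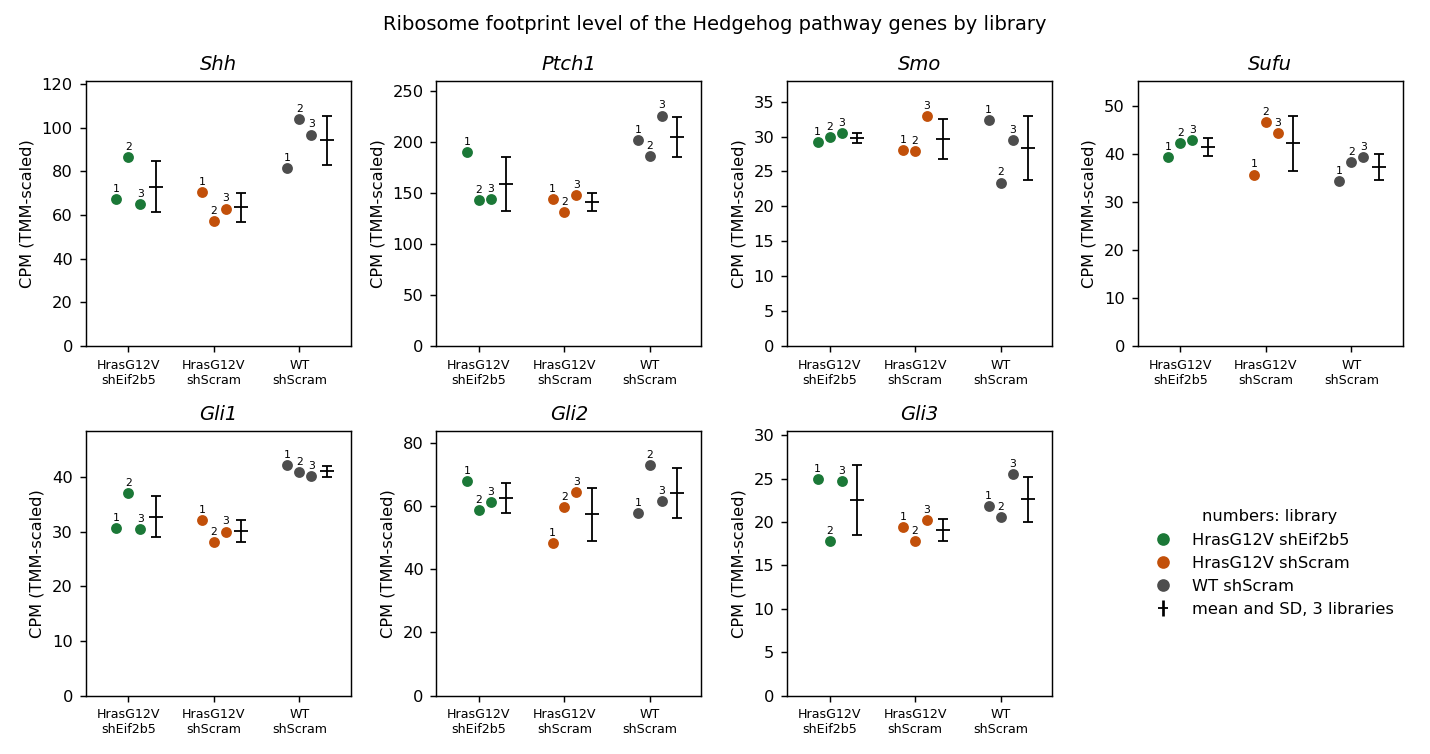
Ribosome footprint level (y axes, TMM-scaled CPM from 0) of the same genes, with libraries as numbered points and the mean with its SD in black. Shh, Ptch1, Gli1 and Gli3 in HrasG12V shScram do not overlap WT shScram, while Smo, Sufu and Gli2 do.

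Without HrasG12V shScram RNA libraries 1 and 3, which leaves 1 RNA library in that condition, Shh was at −0.62 (adjusted p 0.309), Ptch1 at −0.51 (0.297) and Gli1 at −0.12 (0.823), and no member passed. The footprint calls do not use those libraries. Leaving out 1 library at a time kept the call for Shh RNA in all 9 cases (adjusted p 0.00017 to 0.0495). Ptch1 RNA lost it without any 1 of 7 libraries, namely HrasG12V shEif2b5 2 or 3, HrasG12V shScram 1 or 3 and each WT shScram library (adjusted p 0.0531 to 0.138). Shh footprints lost it without HrasG12V shEif2b5 3, any HrasG12V shScram library or WT shScram 2 (0.0534 to 0.232), and Ptch1 footprints without any library of HrasG12V shScram or WT shScram (0.0542 to 0.2). Without HrasG12V shScram RNA library 2 alone, Gli1 (−0.76, adjusted p 0.000724), Smo (−0.44, 0.047) and Gli3 (0.46, 0.0409) passed as well. With offsets for coding GC and length, Shh RNA was at −0.79 (adjusted p 0.0102), Ptch1 RNA at −0.36 (0.149), Gli1 RNA at −0.23 (0.351), Smo RNA at −0.13 (0.679) and Gli3 RNA at 0.57 (0.0356); Shh footprints stayed called at −0.46 (0.0498) and Ptch1 footprints did not, at −0.47 (0.0861).

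Markers of other cells differed between the same libraries. The summed RNA of the 7 Merkel cell markers, all detected, was 25.5 to 33.9 CPM in HrasG12V shScram and 39.1 to 46.6 CPM in WT shScram, and their summed footprints were 22.9 to 37 and 45.5 to 55.6 CPM. No single Merkel cell marker was called, among 5 tested in RNA and 7 in footprints. The part of these cells in the Shh and Ptch1 differences was not tested. Dermal fibroblast and papilla markers, all 13 detected, summed to 745 to 1250 CPM of RNA in HrasG12V shScram and 607 to 2400 CPM in WT shScram, which overlapped. Melanocyte markers, all 7 detected, summed to 598 to 728 CPM of RNA in HrasG12V shScram and 388 to 563 CPM in WT shScram, without overlap. In RNA 2 of the 7 were called higher (7.7% of all tested genes were called). Spinous and granular keratinocyte markers (7 of 8 found) summed to 34300 to 63900 CPM of RNA in HrasG12V shScram and 65700 to 102000 CPM in WT shScram, also without overlap, with 1 of 7 called higher. Krt1 (means of 28100 and 42100 CPM in the same order) and Krt10 (21400 and 33600 CPM) made up most of these sums. Of the 7, 5 were lower, and Ivl (510 and 363 CPM) and Krtdap (474 and 214 CPM) were higher on average. The basal keratinocyte sums, given above, did not overlap either, and 1 of 7 basal markers was called lower. Krt5 (5040 and 7350 CPM) was their largest part. Of the 7, 5 were lower, and Itga6 (393 and 386 CPM) and Trp63 (392 and 346 CPM) were not. In footprints the melanocyte sums overlapped, at 1370 to 1620 CPM in HrasG12V shScram and 1200 to 1410 CPM in WT shScram. So did the spinous and granular sums (31200 to 38000 and 21900 to 44000 CPM) and the basal sums (10200 to 14400 and 8770 to 13000 CPM). No marker of these lists was called in footprints, where 1.7% of all tested genes were. The part of each of these cell types in the RNA differences was not tested.

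The second comparison asked how an shRNA against Eif2b5 altered the pathway in HrasG12V epidermis. Shh and Smo RNA rose in HrasG12V shEif2b5 against HrasG12V shScram, Shh 2.03-fold and Smo 1.47-fold. Their footprints passed no test, and neither RNA nor footprints of Ptch1, Sufu, Gli1, Gli2 or Gli3 did. The HrasG12V shScram libraries are shared with the first comparison, so a value of theirs moves both results.

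Shh had 196, 111 and 178 CPM of RNA in HrasG12V shEif2b5, against 69.1, 107 and 67.1 CPM in HrasG12V shScram. Library 2 of HrasG12V shEif2b5, its lowest, lay just above library 2 of HrasG12V shScram, its highest, so the groups were close without overlapping. The log2 fold change was 1.02 (SE 0.21, adjusted p 0.00736). Shh footprints were at 67.4, 86.5 and 65 CPM in HrasG12V shEif2b5, against 70.5, 57.4 and 63 CPM in HrasG12V shScram, and overlapped (0.20, 95% interval −0.10 to 0.49, adjusted p 0.994).

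Smo had 423, 332 and 412 CPM of RNA in HrasG12V shEif2b5, against 230, 270 and 295 CPM in HrasG12V shScram, with no overlap and a log2 fold change of 0.55 (SE 0.15, adjusted p 0.0254). Smo footprints were nearly level, at 29.2, 29.9 and 30.5 CPM in HrasG12V shEif2b5, against 28.1, 27.9 and 32.9 CPM in HrasG12V shScram. Their log2 difference was 0.01 with a 95% interval of −0.32 to 0.34. Ptch1 had 807, 629 and 655 CPM of RNA in HrasG12V shEif2b5, against 553, 637 and 674 CPM in HrasG12V shScram. Library 1 of HrasG12V shEif2b5 was above all others of both groups, and the rest overlapped (0.17, 95% interval −0.16 to 0.49, adjusted p 0.485). Ptch1 footprints also overlapped, at 190, 143 and 144 CPM in HrasG12V shEif2b5, against 144, 131 and 148 CPM for HrasG12V shScram (0.17, −0.10 to 0.45).

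Gli1 had 174, 197 and 194 CPM of RNA in HrasG12V shEif2b5, against 115, 180 and 116 CPM in HrasG12V shScram, which overlapped through library 2 of HrasG12V shScram (0.47, SE 0.17, adjusted p 0.0678). Gli3 had 40.3, 39 and 38 CPM of RNA in HrasG12V shEif2b5, against 54, 45.5 and 56.3 CPM in HrasG12V shScram, without overlap (−0.42, SE 0.16, adjusted p 0.0811). Gli2 RNA did not overlap either, at 145, 151 and 162 CPM in HrasG12V shEif2b5, against 128, 132 and 140 CPM for HrasG12V shScram (0.19, SE 0.13, adjusted p 0.329). In footprints the 3 Gli genes overlapped, with differences of 0.12 for Gli1 (95% interval −0.18 to 0.42), 0.13 for Gli2 (−0.17 to 0.42) and 0.23 for Gli3 (−0.14 to 0.61). Sufu differed by −0.05 in RNA (−0.45 to 0.34) and −0.02 in footprints (−0.32 to 0.27).

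In RNA, 2 of 7 members were called, both higher (13% of tested genes were called), and 4 of 7 did not overlap (28.6% of tested genes). The median log2 difference of the members was 0.19, against −0.01 over all tested genes. In footprints no member was called by edgeR's quasi-likelihood test, none had an unadjusted p under 0.05 and DESeq2 called none; over all tested genes the share called was 0%, with 519 genes at an unadjusted p under 0.05. None of the 7 was free of overlap in footprints (11.1% of tested genes were).

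Without HrasG12V shScram RNA libraries 1 and 3, Shh was at 0.60 (adjusted p 0.37), Smo at 0.53 (0.313) and Gli1 at 0.07 (0.924), and no member passed. Leaving out 1 library at a time, Shh lost its call without HrasG12V shEif2b5 library 3 (0.95, adjusted p 0.0505), and Smo lost it without HrasG12V shEif2b5 library 1 (0.50, 0.0976) or 3 (0.51, 0.108) or HrasG12V shScram library 1 (0.46, 0.114). Without HrasG12V shScram library 2, Gli1 (0.71, adjusted p 0.000877) and Gli3 (−0.49, 0.0261) passed as well. With offsets for coding GC and length, Shh was at 0.62 (0.0299), Smo at 0.20 (0.425), Gli1 at 0.15 (0.547), Gli3 at −0.59 (0.0302) and Ptch1 at −0.02 (0.957).

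Cell markers differed between these libraries as well. Basal keratinocyte markers, all 7 detected, summed to 13300 to 15500 CPM of RNA in HrasG12V shEif2b5 and 8570 to 11900 CPM in HrasG12V shScram, without overlap. Of the 7 basal markers, 2 went the other way, Itga6 (means of 352 and 393 CPM) and Trp63 (319 and 392 CPM). In RNA 2 of the 7 were called higher (13% of all tested genes were called). Melanocyte markers summed to 469 to 584 CPM of RNA in HrasG12V shEif2b5 and 598 to 728 CPM in HrasG12V shScram, without overlap. Of these 1 of 7 was called lower, a share near that of all tested genes. Merkel cell sums (31.9 to 39.6 and 25.5 to 33.9 CPM), spinous and granular sums (48800 to 60800 and 34300 to 63900 CPM) and dermal sums (748 to 891 and 745 to 1250 CPM) overlapped between HrasG12V shEif2b5 and HrasG12V shScram. Single markers did pass: 2 of 7 spinous and granular markers were called lower and 0 higher in RNA. Of 7 tested dermal markers 1 was called higher and 0 lower (13% of all tested genes were called). In footprints the basal sums (13500 to 15600 and 10200 to 14400 CPM) and melanocyte sums (1400 to 1570 and 1370 to 1620 CPM) overlapped between the same conditions. The part of these cells in the Shh and Smo differences was not tested.

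The third comparison set HrasG12V shEif2b5 against WT shScram. No member differed by a passed test, in RNA or in footprints. Shh RNA was close between the 2 conditions, with 162 ± 44.4 CPM in HrasG12V shEif2b5 and 165 ± 3.39 CPM in WT shScram (SD, n = 3 each; log2 −0.03, 95% interval −0.45 to 0.39). The spread within HrasG12V shEif2b5 was the wider one. Ptch1 RNA was the 1 member whose groups did not overlap (16% of tested genes did not), at 697 ± 96.1 CPM in HrasG12V shEif2b5 and 911 ± 72.4 CPM in WT shScram (−0.39, 95% interval −0.71 to −0.06, adjusted p 0.551).

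In RNA, edgeR's quasi-likelihood test called 0 of 7 members (0.324% of tested genes were called) and DESeq2 called none. The edgeR test gave an unadjusted p under 0.05 for 1 member and for 812 of 11096 tested genes. In footprints it also called none (0.97% of tested genes were called), and DESeq2 called none. There 3 members had an unadjusted p under 0.05, as had 1648 of 11448 tested genes. Those 3 were Shh (−0.37, 95% interval −0.67 to −0.08, adjusted p 0.225), Ptch1 (−0.36, −0.64 to −0.09, adjusted p 0.199) and Gli1 (−0.33, −0.62 to −0.03, adjusted p 0.296), at 73 ± 11.8, 159 ± 26.7 and 32.7 ± 3.75 CPM in HrasG12V shEif2b5, against 94.2 ± 11.4, 205 ± 20 and 41 ± 1.03 CPM in WT shScram. Gli1 and Sufu were the 2 members whose footprint groups did not overlap (16.1% of tested genes did not); Sufu was the higher one in HrasG12V shEif2b5, at 41.5 ± 1.85 CPM against 37.3 ± 2.65 CPM. Ptch1 footprints passed without HrasG12V shEif2b5 library 1 (−0.51, adjusted p 0.0403). Footprint sums of Merkel cell markers (28.2 to 44.9 against 45.5 to 55.6 CPM) and basal markers (13500 to 15600 against 8770 to 13000 CPM) did not overlap. Melanocyte footprint sums did (1400 to 1570 against 1200 to 1410 CPM). Spinous and granular sums did not overlap in RNA (48800 to 60800 against 65700 to 102000 CPM). No marker of these lists was called, and the part of these cells was not tested. The plot of differences shows the 3 comparisons side by side; any 2 of them share the libraries of 1 condition.

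**Figure D3:**
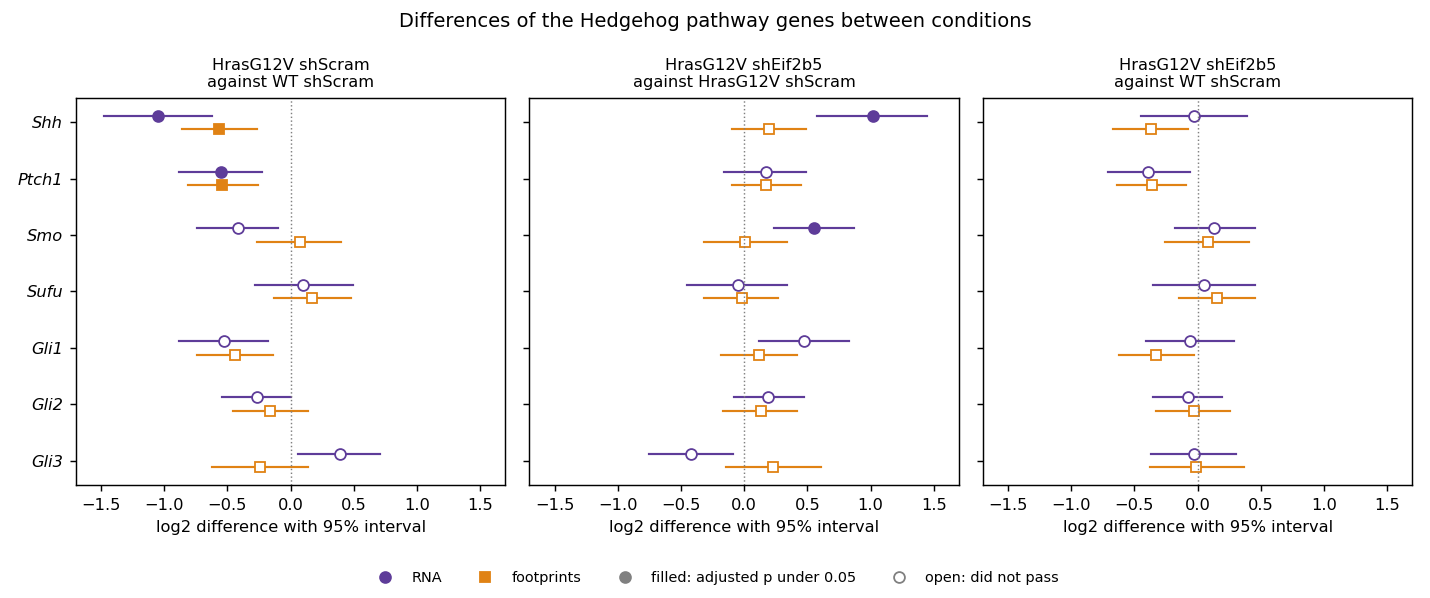
Log2 difference (x axis) of each gene with its 95% interval in RNA (circles) and footprints (squares), for HrasG12V shScram against WT shScram, HrasG12V shEif2b5 against HrasG12V shScram and HrasG12V shEif2b5 against WT shScram; filled symbols passed an adjusted p of 0.05. Shh and Ptch1 are filled in both kinds in the first panel, Shh and Smo RNA in the second, and no symbol in the third.

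**Figure D4:**
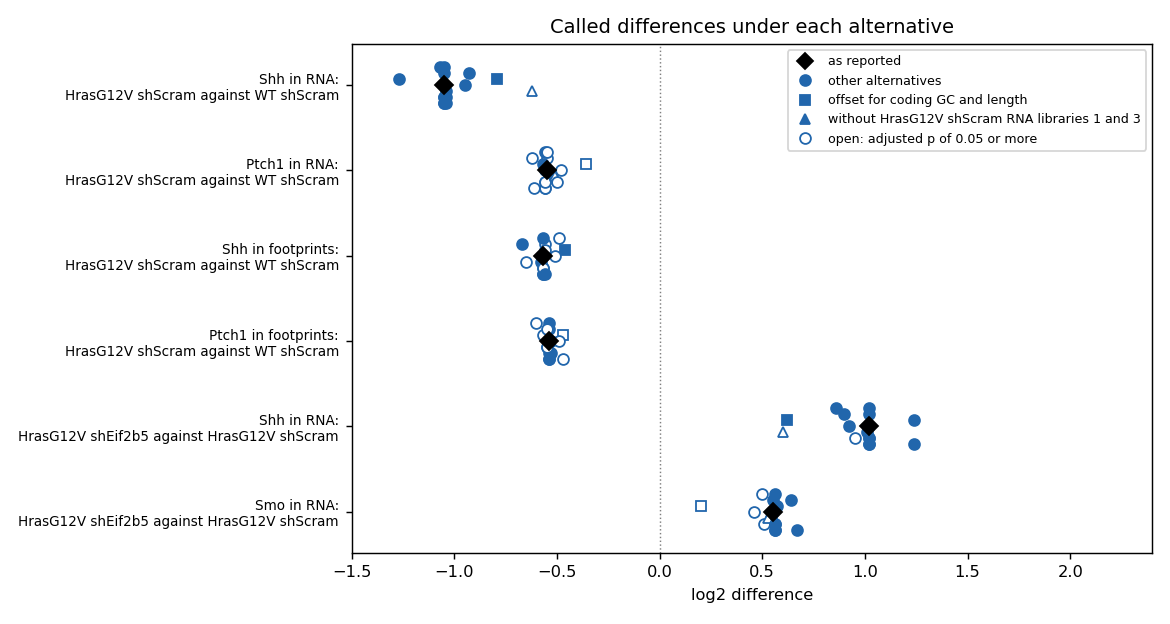
Log2 difference (x axis) of the 6 called results as reported (diamonds) and under each alternative (other symbols; filled where the adjusted p was under 0.05). No value crosses 0; the offset for coding GC and length and leaving out RNA libraries 1 and 3 of HrasG12V shScram give the smallest Shh RNA differences, at −0.79 and −0.62 against WT shScram and 0.62 and 0.60 for HrasG12V shEif2b5 against HrasG12V shScram.

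Footprints relative to RNA set the members apart from each other more than the conditions did. Smo had 0.0767 footprint CPM per RNA CPM in HrasG12V shEif2b5, 0.112 in HrasG12V shScram and 0.0801 in WT shScram, which put it within the lowest 0.408%, 0.445% and 0.343% of 10793 genes. Gli1 (0.174, 0.22 and 0.209 in the same order of conditions) and Ptch1 (0.228, 0.227 and 0.225) were also low, at percentiles between 3.38 and 5.78. Gli2 stood at 0.409, 0.429 and 0.396, and Gli3 at 0.575, 0.368 and 0.566. Sufu was the 1 member with more footprint than RNA CPM, at 1.59, 1.58 and 1.47. The ratio compares separately scaled libraries and is a description within each condition; the median log2 ratio of all genes was 0, −0.04 and −0.01. Sufu, the member with the highest ratio, has no annotated upstream ATG and is the 1 printed start context with a pyrimidine 3 bases before the start codon.

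**Figure D5:**
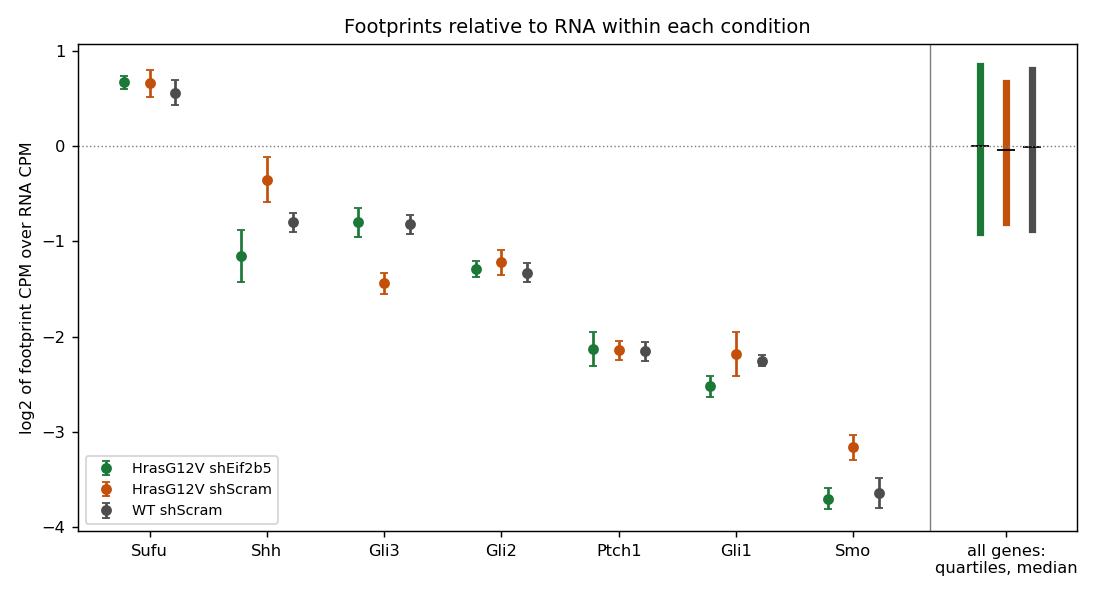
Log2 of mean footprint CPM over mean RNA CPM (y axis) for each gene in HrasG12V shEif2b5, HrasG12V shScram and WT shScram, with standard errors from the 3 libraries of each kind; bars at the right give the quartiles and medians of 10793 genes. Smo lies at −3.7, −3.16 and −3.64, below the lower quartile, and Sufu at 0.67, 0.66 and 0.56 is the member above 0.

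Whether the footprint difference departed from the RNA difference was tested as the interaction of condition and library kind over all 18 libraries, called translation efficiency here. No member passed in any of the 3 comparisons by edgeR's quasi-likelihood test. DESeq2 also called none, but in HrasG12V shEif2b5 against WT shScram it gave an adjusted p for Ptch1 alone. For HrasG12V shEif2b5 against HrasG12V shScram, the share of tested genes called was 2.28%. An unadjusted p under 0.05 was found for 2065 of 10793 tested genes and for 3 of the 7 members. These 3 members were Shh (−0.83, 95% interval −1.37 to −0.29, adjusted p 0.0853), Gli3 (0.66, 0.19 to 1.12, adjusted p 0.111) and Smo (−0.55, −0.97 to −0.12, adjusted p 0.148). The footprint to RNA ratio of Shh was 0.452 in HrasG12V shEif2b5 and 0.786 in HrasG12V shScram. Its RNA rise had passed the test, while its footprint difference (0.20, 95% interval −0.10 to 0.49) had not, which leaves a footprint rise unresolved. For HrasG12V shScram against WT shScram the share called was 1.18%. Gli3 (−0.63, −1.10 to −0.16, adjusted p 0.168) and Smo (0.49, 0.06 to 0.92, adjusted p 0.248) had an unadjusted p under 0.05, as had 1704 of 10793 tested genes. For HrasG12V shEif2b5 against WT shScram the share called was 0%, with 632 genes and 0 members at an unadjusted p under 0.05. Shh passed in the second comparison without HrasG12V shEif2b5 library 2 (−1.18, adjusted p 0.0221) or HrasG12V shScram library 2 (−1.11, 0.0106), and stood at −0.40 (0.772) without HrasG12V shScram RNA libraries 1 and 3 and at −0.45 (0.275) with offsets for coding GC and length. Ptch1 was level in all 3 comparisons, with differences of 0.02, 0.01 and 0.02 and intervals within −0.41 and 0.44.

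The ligand side of the pathway rested on Shh. Ihh and Dhh, which encode the other Hedgehog ligands, had at most 1.11 and 0.405 CPM in any RNA library and 0 counts in footprints. Of 9 tested genes on a list for Hedgehog ligands and their release, 3 were called in RNA of HrasG12V shScram against WT shScram (7.7% of all tested genes were). Whether each listed gene acts on the ligand in this tissue was not tested. Scube1, of a family of secreted proteins that help release the ligand, fell (−0.77, SE 0.19, adjusted p 0.0253; 19.3, 25 and 19.2 CPM in HrasG12V shScram against 35.6, 35 and 35.1 CPM in WT shScram). Notum, which encodes a secreted deacylase, fell (−0.85, adjusted p 0.0447), and Scube2, of the same family as Scube1, rose (1.11, SE 0.32, adjusted p 0.042). For HrasG12V shEif2b5 against HrasG12V shScram, Scube1 was the 1 of 9 called (13% of all tested genes were), and it rose (0.78, SE 0.20, adjusted p 0.018). No gene of this list was called in footprints or translation efficiency.

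Among co-receptors and decoys, 5 of 6 genes were tested. In RNA of HrasG12V shScram against WT shScram 1 of the 5 was called, lower (7.7% of all tested genes were called). Boc, a co-receptor that presents ligand to Patched1, rose in footprints of HrasG12V shScram against WT shScram and was the 1 of 5 called there, where 1.7% of all tested genes were (0.55, SE 0.12, adjusted p 0.0238; 73.4, 75.9 and 77.1 CPM against 55.5, 47.2 and 52.6 CPM). For HrasG12V shEif2b5 against HrasG12V shScram none of the 5 passed in RNA or footprints. The co-receptor Gas1 had 647, 595 and 841 CPM of RNA in HrasG12V shEif2b5, 231, 690 and 273 CPM for HrasG12V shScram and 857, 711 and 545 CPM for WT shScram. HrasG12V shScram libraries 1 and 3 were low and library 2 was not, and the differences of 0.81 (adjusted p 0.193) and −0.83 (0.219) did not pass. The co-receptor Cdon differed by −0.18 (adjusted p 0.501) and −0.01 (0.978) in RNA, and the decoy Hhip by 0.76 (0.263) and −0.31 (0.703), in HrasG12V shEif2b5 against HrasG12V shScram and in HrasG12V shScram against WT shScram.

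Of 8 tested target genes outside the 7 members, 2 were called in RNA of HrasG12V shScram against WT shScram, both lower (7.7% of all tested genes were called). Of these the transcription factor gene Mycn fell (−0.76, SE 0.18, adjusted p 0.0217). Mycn had 66.6, 84.4 and 47.3 CPM in HrasG12V shScram, against 115, 97.1 and 117 CPM in WT shScram. It rose in HrasG12V shEif2b5 against HrasG12V shScram, at 141, 111 and 126 CPM (0.95, SE 0.18, adjusted p 0.00578), and was the 1 of 8 called there, a share near the 13% of all tested genes. The median of the 8 was −0.40 in the first comparison, against 0.01 over all tested genes, and 0.46 in the second, against −0.01. No target was called in footprints; the cell cycle gene Ccnd1 had a footprint difference of −0.41 (SE 0.11, adjusted p 0.0826) in HrasG12V shScram against WT shScram and an RNA difference of −0.46 (adjusted p 0.124). Bcl2, a gene for an inhibitor of apoptosis, was at −0.34 (adjusted p 0.398) in RNA of that comparison and 0.61 (0.0998) in HrasG12V shEif2b5 against HrasG12V shScram.

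Inside the cell, 25 genes that carry or restrain the signal between Smoothened and the Gli proteins were tested. In RNA of HrasG12V shScram against WT shScram, Csnk1a1, which encodes casein kinase 1 alpha, rose (0.57, SE 0.16, adjusted p 0.0371); in all, 1 of the 25 was called higher and 1 lower (7.7% of all tested genes were called). For HrasG12V shEif2b5 against HrasG12V shScram 5 were called higher and 1 lower (13% of all tested genes were called), and Csnk1a1 fell (−0.87, adjusted p 0.00417). In the same comparison Evc (0.77, 0.015) and Evc2 (0.79, 0.0415), whose products form the ciliary complex that Smoothened signals through, rose with Kif7 (0.83, 0.037), a ciliary kinesin that organises Gli proteins, and Tulp3 (0.69, 0.0288), which brings receptors into the cilium. Csnk1a1 was also the 1 gene of the list called in translation efficiency there, where 2.28% of all tested genes were (0.72, SE 0.20, adjusted p 0.0484), at 182, 234 and 197 CPM of RNA in HrasG12V shEif2b5 against 400, 290 and 427 CPM in HrasG12V shScram, and 700, 691 and 761 against 836, 799 and 743 CPM of footprints. Of 34 primary cilium genes, none was called in RNA of HrasG12V shScram against WT shScram (7.7% of all tested genes were), and 1 was called in HrasG12V shEif2b5 against HrasG12V shScram (13% were). This was Dync2li1, a dynein-2 light intermediate chain gene, which fell (−1.11, SE 0.30, adjusted p 0.0231). Without HrasG12V shScram RNA libraries 1 and 3, no gene of these 5 lists was called in RNA.

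By the root mean square difference of centred log2 levels over all 18 libraries, the genes most like Shh among 8144 candidates were Sh3pxd2a (0.15), Sox21 (0.157), Neurl1b (0.205), Mycn (0.205) and Arhgef19 (0.209), where the median candidate was at 0.492. Gli1 was the member nearest to Shh, in place 45, and Ptch1 was in place 495. The genes most like Ptch1 were Rgma (0.142), Ehd2 (0.149), Htra1 (0.154), Ell3 (0.154) and AI464131 (0.155), with the median at 0.349. Gli2 came in place 213 and Gli1 in place 365, while Shh, whose RNA in HrasG12V shEif2b5 lay near WT shScram, came in place 3404. The likeness takes in every library, those that stand apart included, and is a description of 18 points that share library kinds and conditions.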

How the data were processed

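Per the labels, 9 ribosome footprint and 9 RNA libraries were made from E18.5 epidermal basal cells, and the submitters' processing notes name Bowtie, TopHat2 and HTSeq with genome build mm10; versions and the strand setting are not given in the sources used here, so reads of a gene and of an antisense partner cannot be told apart. The deposited table holds raw counts of reads over coding sequence per gene symbol, which the authors had not scaled. All per-sample columns were used, each for the sample whose description names it. No 2 libraries of a condition were copies (chi-square per degree of freedom 3.35 to 21.1 over 18 pairs).

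Genes were filtered with filterByExpr (minimum count 10, minimum total 15), given TMM factors computed per library kind, and tested with edgeR 4.0.16 in R 4.3.3 (quasi-likelihood F test, robust dispersion) on the 9 libraries of a kind; the biological coefficient of variation was 0.162 in RNA and 0.14 in footprints. Translation efficiency is the interaction of condition and library kind over 18 libraries. A call is an adjusted p under 0.05 (Benjamini-Hochberg, over all tested genes), and intervals are 95% intervals of the model. With 3 libraries a group, the smallest two-sided p of an exact permutation test is 0.1. CPM per kb divides by the coding length of GENCODE vM21, to which 98.5% of symbols were matched, and promoters are from RefSeq (5 of 7 members matched). The test steps were checked on counts simulated with the same spread for every gene and without libraries that stand apart. That check does not cover calls that rest on such libraries.

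The 7 members were named in every comparison, with every called gene of the other Hedgehog lists, 9 further pathway genes by name, and the 5 genes most like Shh and the 5 most like Ptch1 (mean of at least 10 CPM in both kinds, pseudocount 0.5 CPM). Of the genes this rule names, 2 are not reported here. The members and lists were chosen with earlier results of these data known. Alternatives were DESeq2 1.42.0 size factors, the DESeq2 Wald test, no filter, a mean of at least 10 CPM, a replicate block, offsets for coding GC and length, each library left out, and RNA libraries 1 and 3 of HrasG12V shScram left out.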

Additional observations from a re-analysis of the deposited data

How the results depend on the processing

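Of 981 values of the 7 genes under the alternatives, over 63 results, 875 kept their direction and their side of the threshold, 31 lost a call, 13 gained one, 62 were uncalled values that changed sign, and 0 called values changed sign. Most of the 63 results were uncalled, and only called ones could lose a call. For HrasG12V shScram against WT shScram, Shh kept its call under 15 of 16 alternatives in RNA and 9 of 15 in footprints. Ptch1 kept it under 6 of 16 and 8 of 15. In RNA of HrasG12V shEif2b5 against HrasG12V shScram, Shh kept its call under 14 of 16 alternatives and Smo under 11 of 16. Without HrasG12V shScram RNA libraries 1 and 3, a choice made with earlier results known, 0 members were called in RNA of HrasG12V shScram against WT shScram and 0 in HrasG12V shEif2b5 against HrasG12V shScram. Over all genes, 47 were then called (854 with all libraries) in the first and 17 (1444) in the second, 124 (36) in HrasG12V shEif2b5 against WT shScram, and 8 (127) and 2 (246) in translation efficiency of the first and second; fewer libraries enter these fits. With offsets for coding GC and length, 408 genes were called in RNA of the first and 631 (320 of them higher, against 580 of 1444) in the second, 97 in translation efficiency of the second (66 higher, against 212 of 246), and 1 member, Shh, in footprints of the first; the cause was not tested.

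Replicate numbers were not shown to pair the libraries: same-numbered libraries correlated in their deviations at −0.29 to 0.28 in RNA and −0.14 to 0.22 in footprints between conditions. Footprint and RNA libraries of 1 condition and number correlated at 0.02 to 0.28, with 6 of 9 pairs over 0.1; since not every pair was, the numbers were not taken as pairing, though this remains a hint from the data. With a replicate block, 1 member (Shh) was called in RNA and 1 (Ptch1) in footprints of HrasG12V shScram against WT shScram, with adjusted p of 0.0619 for Ptch1 RNA and 0.0518 for Shh footprints. The block gave 1 gene (0 without) in footprints of HrasG12V shEif2b5 against HrasG12V shScram and 184 (111) against WT shScram. With a block for each condition and number, translation efficiency gave 167 (127) and 359 (246) genes in HrasG12V shScram against WT shScram and HrasG12V shEif2b5 against HrasG12V shScram, and 0 members in each comparison.

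Without the filter on low counts, HrasG12V shEif2b5 against WT shScram gave 72 genes in RNA and 216 in footprints, and HrasG12V shEif2b5 against HrasG12V shScram gave 1 in footprints. DESeq2 gave 64, 229 and 1 for the same 3, and 236 and 403 in translation efficiency of HrasG12V shScram against WT shScram and HrasG12V shEif2b5 against HrasG12V shScram, and 5 in HrasG12V shEif2b5 against WT shScram.

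Leaving out 1 library at a time, the members called in RNA numbered 1 to 5 in HrasG12V shScram against WT shScram and 0 to 4 in HrasG12V shEif2b5 against HrasG12V shScram, with the highest counts without HrasG12V shScram library 2. They numbered 0 to 2 and 0 to 1 in footprints of HrasG12V shScram and of HrasG12V shEif2b5 against WT shScram, and 0 to 1 in translation efficiency of HrasG12V shEif2b5 against HrasG12V shScram. Over all genes the counts ran over 189 to 2431, 197 to 3150 and 12 to 80 in RNA of HrasG12V shScram against WT shScram, HrasG12V shEif2b5 against HrasG12V shScram and HrasG12V shEif2b5 against WT shScram, 73 to 559, 0 to 31 and 37 to 407 in footprints, and 1 to 418, 1 to 949 and 0 to 14 in translation efficiency. Depth limits Sufu RNA and Gli3 footprints most, with as few as 43 and 65 counts in a library.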

Other observations

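Shh is made in hair follicle epithelium, and 21 genes of the hair follicle and placode were all detected and tested. In footprints of HrasG12V shScram against WT shScram, Foxi3, a placode transcription factor gene, fell (log2 −0.94, SE 0.15, adjusted p 0.00259 by edgeR's quasi-likelihood test), at 60.4, 54.9 and 63.6 CPM in HrasG12V shScram against 120, 131 and 92.9 CPM in WT shScram. The keratin genes Krt17 (0.66, adjusted p 0.0303) and Krt75 (0.84, adjusted p 0.022) rose, and the other 18 did not pass (1.7% of all tested genes were called). Against WT shScram the same 3 were called in HrasG12V shEif2b5 footprints, Foxi3 lower (−0.72, adjusted p 0.0283) and Krt17 (0.81, 0.0137) and Krt75 (0.81, 0.0421) higher (0.97% of all tested genes were called); the WT shScram libraries are shared.

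In RNA, Wnt10b, a Wnt ligand gene of the placode, fell in HrasG12V shScram against WT shScram (−0.60, SE 0.15, adjusted p 0.0234), with 108, 133 and 110 CPM against 200, 153 and 178 CPM. Krt75 (0.75, adjusted p 0.038) and Trps1 (0.69, 0.0248) rose, which makes 3 of 21 called (7.7% of all tested genes were). In HrasG12V shEif2b5 against HrasG12V shScram, Wnt10b (0.66, adjusted p 0.0116), Lef1 (0.60, 0.0288), Lhx2 (0.61, 0.0269) and Krt17 (0.67, 0.0378) rose and Lgr5 (−0.83, 0.0419) fell, 5 of 21 (13% of all tested genes were called). Without HrasG12V shScram RNA libraries 1 and 3, the list held 0 calls in HrasG12V shScram against WT shScram and 1 in HrasG12V shEif2b5 against HrasG12V shScram.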
